A study of Mus musculus with 12 samples.

Results

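The cholesterol module comprised 28 genes of cholesterol synthesis, its control by SREBP2 and the handling of the product, taken as a list of symbols and found as rows of an expression table of 35709 genes from mouse hepatocytes. All 28 were present and all 28 passed the filter on low values (a normalized count of at least 1 in at least 3 of 12 samples), which left 20244 genes for testing. Of the members, 8 belong to the mevalonate arm and its prenyl branch, 12 to the squalene and sterol arm, 4 to SREBP2 control, and 4 to transport, storage and receptor turnover. The samples were primary hepatocytes from male C57BL/6J mice aged 8 to 10 weeks, isolated by Liberase perfusion, differential centrifugation and a Percoll step. They formed 4 groups of 3 samples. Alb-R3 CCl4 and Alb-R3 oil came from mice labelled as lacking Fgfr3 in hepatocytes only, and Alb-Cre CCl4 and Alb-Cre oil came from Alb-Cre mice, whose Cre recombinase is driven by the albumin promoter. Carbon tetrachloride (CCl4), a toxicant that hepatocytes convert to a damaging radical, was given as 1 injection into the peritoneum, 0.4 mg for each g of body weight. It was dissolved in olive oil, oil alone was the vehicle, and the labelled time was 48 h in all groups. The labels give neither the exons removed nor the share of cells in which they were removed, and do not say whether each sample of a group came from a separate animal. The p-values therefore rest on a variation among samples that may be technical.

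Cholesterol is built from acetyl-CoA through mevalonate to squalene, and squalene is closed into lanosterol and trimmed to cholesterol in the endoplasmic reticulum. The transcription factor SREBP2 switches on the genes of this route when sterols run low: SCAP carries its precursor to the Golgi for cleavage, and the INSIG proteins hold SCAP back when sterols are plentiful. The liver is a main site of this synthesis, and hepatocytes also store cholesterol as esters and export it to lipoproteins.

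Promoter sequences from RefSeq on GRCm38.p6, covering 250 bases before to 50 bases after each annotated start, were matched by symbol for 23 of the 28 members, in 29 windows. Of the 29 windows, 5 are shown because they contrast members whose levels moved together between libraries (Hmgcs1, Msmo1 and Insig1) with the pair of sterol C14-reductases that changed in opposite directions after CCl4 in Alb-R3 (Tm7sf2 and Lbr). Each is written 5′ to 3′ on the gene's strand: Hmgcs1 at chr13:119690101-119690400 (+), Msmo1 at chr8:64733529-64733828 (-), Insig1 at chr5:28071162-28071461 (+), Tm7sf2 at chr19:6067801-6068100 (-) and Lbr at chr1:181842352-181842651 (-). Capitals mark the sterol response element letters TCACNCCAC or the shorter TCACCCCA, the CCAAT box (CCAAT, or ATTGG on the other strand) and the E-box CACGTG.
Hmgcs1: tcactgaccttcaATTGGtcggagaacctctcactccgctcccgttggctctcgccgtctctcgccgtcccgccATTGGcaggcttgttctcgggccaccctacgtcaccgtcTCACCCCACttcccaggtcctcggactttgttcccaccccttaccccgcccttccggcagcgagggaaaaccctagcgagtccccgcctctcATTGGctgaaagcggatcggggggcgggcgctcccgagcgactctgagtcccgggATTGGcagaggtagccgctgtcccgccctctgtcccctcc
Msmo1: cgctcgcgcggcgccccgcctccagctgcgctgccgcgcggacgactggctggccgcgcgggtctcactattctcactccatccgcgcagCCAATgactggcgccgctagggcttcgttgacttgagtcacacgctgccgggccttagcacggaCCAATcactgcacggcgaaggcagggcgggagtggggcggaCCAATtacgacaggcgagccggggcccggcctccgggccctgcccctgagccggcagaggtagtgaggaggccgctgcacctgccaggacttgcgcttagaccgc
Insig1: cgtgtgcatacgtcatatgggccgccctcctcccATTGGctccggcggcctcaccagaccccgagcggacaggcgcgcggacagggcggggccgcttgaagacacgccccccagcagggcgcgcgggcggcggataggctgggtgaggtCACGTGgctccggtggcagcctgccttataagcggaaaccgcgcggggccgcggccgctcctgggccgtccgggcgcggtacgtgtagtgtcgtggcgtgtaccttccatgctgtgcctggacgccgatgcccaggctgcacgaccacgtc
Tm7sf2: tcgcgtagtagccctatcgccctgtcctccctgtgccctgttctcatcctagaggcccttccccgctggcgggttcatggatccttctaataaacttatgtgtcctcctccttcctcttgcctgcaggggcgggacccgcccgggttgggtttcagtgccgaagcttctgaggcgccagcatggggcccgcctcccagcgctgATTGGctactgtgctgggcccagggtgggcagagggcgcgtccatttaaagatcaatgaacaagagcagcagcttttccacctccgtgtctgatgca
Lbr: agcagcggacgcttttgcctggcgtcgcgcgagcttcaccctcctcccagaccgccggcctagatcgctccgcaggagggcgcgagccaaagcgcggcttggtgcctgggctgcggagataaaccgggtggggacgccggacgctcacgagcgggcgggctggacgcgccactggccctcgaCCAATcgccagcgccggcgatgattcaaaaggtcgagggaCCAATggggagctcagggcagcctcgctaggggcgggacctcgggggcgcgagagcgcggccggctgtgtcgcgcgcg

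The sterol response element letters TCACNCCAC, searched on both strands, were found in 1 of the 23 member genes, Hmgcs1, against 1.44% of 27025 genes with a window. The shorter TCACCCCA, which lies within the longer match in Hmgcs1, was found in 2 of 23, Hmgcs1 and Srebf2, against 1.77% of all genes. CCAAT was found in 20 of 23 member genes (87%) against 41.1% of all genes, and was not found in the windows of Abca1, Acat2 and Scap. The GC box GGGCGG was found in 21 of 23 (91.3%) against 38.2%, and CACGTG in 6 of 23 (26.1%) against 8.09%. The windows of Tm7sf2 and Lbr both held CCAAT and GC boxes, in 1 and 2 copies of CCAAT, and neither held the other letters. The same was true of Msmo1, whose level moved with the other enzymes, so lacking those letters was not particular to the pair. These counts describe letters in windows.

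Across the 12 libraries the estimated depth was between 28000000 and 39600000 reads, and the deposited normalized counts summed to between 27200000 and 38800000 per library. Fgfr3, the targeted gene, had normalized counts of 477.7, 372.1 and 382.3 in Alb-R3 CCl4, 523.1, 650.5 and 1109 in the libraries labelled Alb-R3 oil, 950.9, 705.7 and 753 in Alb-Cre CCl4, and 734.9, 887.6 and 988.1 in Alb-Cre oil. The library labelled Alb-R3 oil replicate 3 thus held the highest Fgfr3 value of the 12, against its label. A sum over the whole gene also counts reads outside a deleted part, so how far it checks the label is limited. Alb-R3 CCl4 replicate 1 stood apart: mitochondrially encoded genes took 32.3% of its total, against 6.22% to 12.8% in the others, so results are also given without it. It also had the highest summed counts of macrophage (14305), monocyte and neutrophil (4569) and cholangiocyte (6228) markers of the 12 libraries. Its hepatocyte marker sum was the lowest of the 12, and its cell division (4671) and stellate cell (1293) sums were the lowest after CCl4. The hepatocyte label was met by its markers, of which 9 of the 10 listed were found by symbol: they were above 0 in every library and together took 6.6% to 13.9% of the total. A summed level in such bulk samples cannot tell fewer cells of a type from less RNA per cell.

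**Figure D1:**
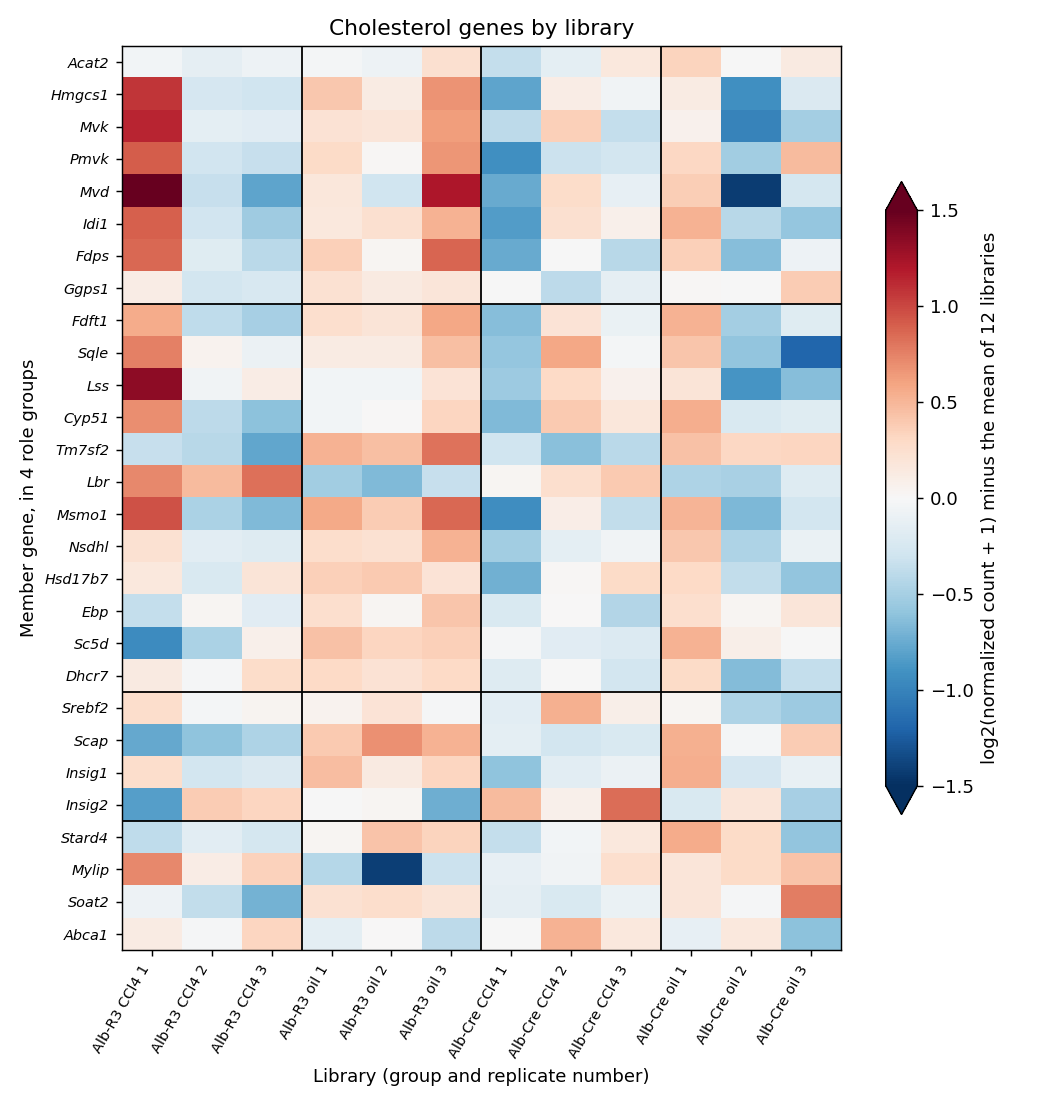
Each cell is a member's log2(normalized count + 1) in 1 library minus its mean over the 12 libraries (colour scale in log2 units); rows are the 28 members in 4 role groups and columns the 12 libraries. Alb-R3 CCl4 replicate 1 is red for most mevalonate and early sterol enzymes, while Tm7sf2 and Scap are blue and Lbr is red in all 3 Alb-R3 CCl4 libraries.

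In CCl4 against oil in Alb-R3 hepatocytes, a few members changed, in both directions. Lbr and Mylip were higher after CCl4, and Tm7sf2, Scap and Sc5d were lower: 5 of 28 members passed limma's adjusted p threshold of 0.05, against 17.8% of the 20244 genes tested, a share near that background. Split by direction, 2 were higher against 10.9% of all genes and 3 lower against 6.92%, and with mitochondrial genes left out and totals made equal it was 3 higher and 2 lower. Without Alb-R3 CCl4 replicate 1, 1 was higher (Lbr) against 9.84% of 19818 genes, and 4 were lower (Tm7sf2, Scap, Msmo1 and Soat2) against 6.21%. Leaving out the library labelled Alb-R3 oil replicate 3, which holds the high Fgfr3 value, 2 were higher and 2 lower, and Sc5d was the call lost (limma adjusted p = 0.0866). The median log2 fold change of the members was -0.25, beside 0.00 over all genes, with 21 of 28 below 0. It was -0.51 without replicate 1, with 24 of 28 below 0. The sign of this median depended on the scaling: it was 0.04 after quantile normalization, 0.16 with mitochondrial genes left out and totals made equal, and 0.014 on the FPKM columns. Over all genes the median was then -0.06, 0.37 and 0.22, so the members lay above all genes after quantile normalization and below them in the other scalings.

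The mevalonate arm makes the isoprenoid units, and none of its 8 members passed the test after CCl4 in Alb-R3. All 8 log2 fold changes were below 0 as deposited, whereas 8 were above 0 with mitochondrial genes left out, 7 after quantile normalization and 5 on FPKM. Relative to the median of all genes, 8 lay below it in each of these scalings except quantile normalization, where 1 did. As deposited they ran between -0.33 for Fdps, the farnesyl diphosphate synthase, and -0.07 for Mvk, mevalonate kinase. In that range lay Acat2 (-0.13 ± 0.17, SE), Pmvk (-0.23 ± 0.34) and Idi1 (-0.28 ± 0.39). Hmgcs1, the cytosolic HMG-CoA synthase at the head of the route, had 24320, 9679 and 9366 normalized counts in Alb-R3 CCl4, against 15210, 12550 and 18450 in Alb-R3 oil. Its first CCl4 library lay above every oil library and the other 2 lay below them all, so its log2 fold change of -0.23 ± 0.38 (SE) became -0.68 ± 0.31 without that library (adjusted p = 0.162, limma). Mvd, mevalonate diphosphate decarboxylase, was the most uneven member, with 3333, 663.6 and 484.9 in Alb-R3 CCl4, against 943.3, 681.1 and 1951 in Alb-R3 oil. Those groups overlapped, and the highest CCl4 library was 6.87 times the lowest. Ggps1, which makes geranylgeranyl diphosphate for protein prenylation, did not overlap between the groups (183.4 ± 28.9 in CCl4 against 226.3 ± 7.8 in oil, SD, n = 3 each), but its difference missed the threshold (log2 fold change -0.31 ± 0.19, limma adjusted p = 0.303).

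The squalene and sterol arm held 3 of the 5 called members. Tm7sf2, the sterol C14-reductase of the endoplasmic reticulum (Ensembl ENSMUSG00000024799, chromosome 19, 6062821 to 6068373, minus strand), had 2827, 2671 and 2085 normalized counts in Alb-R3 CCl4, against 5126, 4912 and 6303 in Alb-R3 oil. Every CCl4 library lay below every oil library, and the fold was 0.463 (log2 fold change -1.11 ± 0.17 SE, limma adjusted p = 0.000611). Lbr, the lamin B receptor of the inner nuclear membrane, which carries the same C14-reductase activity (ENSMUSG00000004880, chromosome 1, 181815335 to 181843046, minus strand), had 619, 523 and 666 in Alb-R3 CCl4, against 261.5, 236.9 and 295.7 in Alb-R3 oil. It was 2.27-fold higher with no overlap (log2 fold change 1.18 ± 0.17, limma adjusted p = 0.000478). Both kept their calls without Alb-R3 CCl4 replicate 1, at -1.20 ± 0.17 for Tm7sf2 and 1.16 ± 0.19 for Lbr.

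Lbr also anchors lamins and chromatin, and its rise went with that of the cell division list and of several lists of other cell types. All 10 listed cell division genes were called higher after CCl4 in both genotypes, with a median log2 fold change of 7.04 in Alb-R3 and 6.62 in Alb-Cre, none of them at 0 in all libraries of a group. Their summed normalized counts were 4671 to 16681 in Alb-R3 CCl4, against 135.1 to 211.7 in Alb-R3 oil. In Alb-Cre the sums were 9372 to 11652 after CCl4, against 192.1 to 271.9 after oil. In Alb-R3, CCl4 against oil also called higher all 12 macrophage markers, 9 of 10 stellate cell and fibroblast markers, 8 of 10 endothelial cell markers and 3 of 8 monocyte and neutrophil markers. Without Alb-R3 CCl4 replicate 1 these counts were 10, 10, 9 and 2. None of these markers was at 0 in all libraries of either Alb-R3 group. The summed stellate markers were 1293 to 3339 normalized counts in Alb-R3 CCl4, against 522.1 to 707.3 in Alb-R3 oil. The endothelial sums were 4814 to 5460 in Alb-R3 CCl4, against 1954 to 2195 in Alb-R3 oil. The part of cell division and of these cell types in the change of Lbr was not tested.

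Sc5d, the sterol C5-desaturase of the late route, had 9126, 12580 and 18470 in Alb-R3 CCl4, against 23640, 21800 and 22350 in Alb-R3 oil. The groups did not overlap, although the CCl4 libraries spread over 2.02-fold, and the log2 fold change was -0.81 ± 0.25 (SE, limma adjusted p = 0.0402). The lowest value belonged to Alb-R3 CCl4 replicate 1, and without it the change was -0.57 ± 0.22 and missed the threshold (limma adjusted p = 0.0993). Msmo1, the methylsterol monooxygenase, behaved the other way round: it had 8841, 3302 and 2885 in Alb-R3 CCl4, against 6778, 5978 and 8342 in Alb-R3 oil. The groups overlapped through replicate 1 alone, and the log2 fold change was -0.67 ± 0.40 with it (limma adjusted p = 0.293) and -1.17 ± 0.32 without it (limma adjusted p = 0.0258).

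The other 8 sterol-arm members did not pass with or without that library. Fdft1, squalene synthase, was at -0.45 ± 0.32, Ebp, the sterol isomerase, at -0.40 ± 0.18, and Nsdhl, which removes a C4 carboxyl group, at -0.37 ± 0.22. Hsd17b7, the partner 3-ketosteroid reductase, was at -0.28 ± 0.26, and Cyp51, the lanosterol demethylase, at -0.20 ± 0.34. Dhcr7, which makes the final reduction to cholesterol, was at -0.14 ± 0.21. Sqle, the squalene epoxidase, was at 0.01 ± 0.37, and Lss, lanosterol synthase, at 0.43 ± 0.35, which became -0.01 ± 0.29 without replicate 1.

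**Figure D2:**
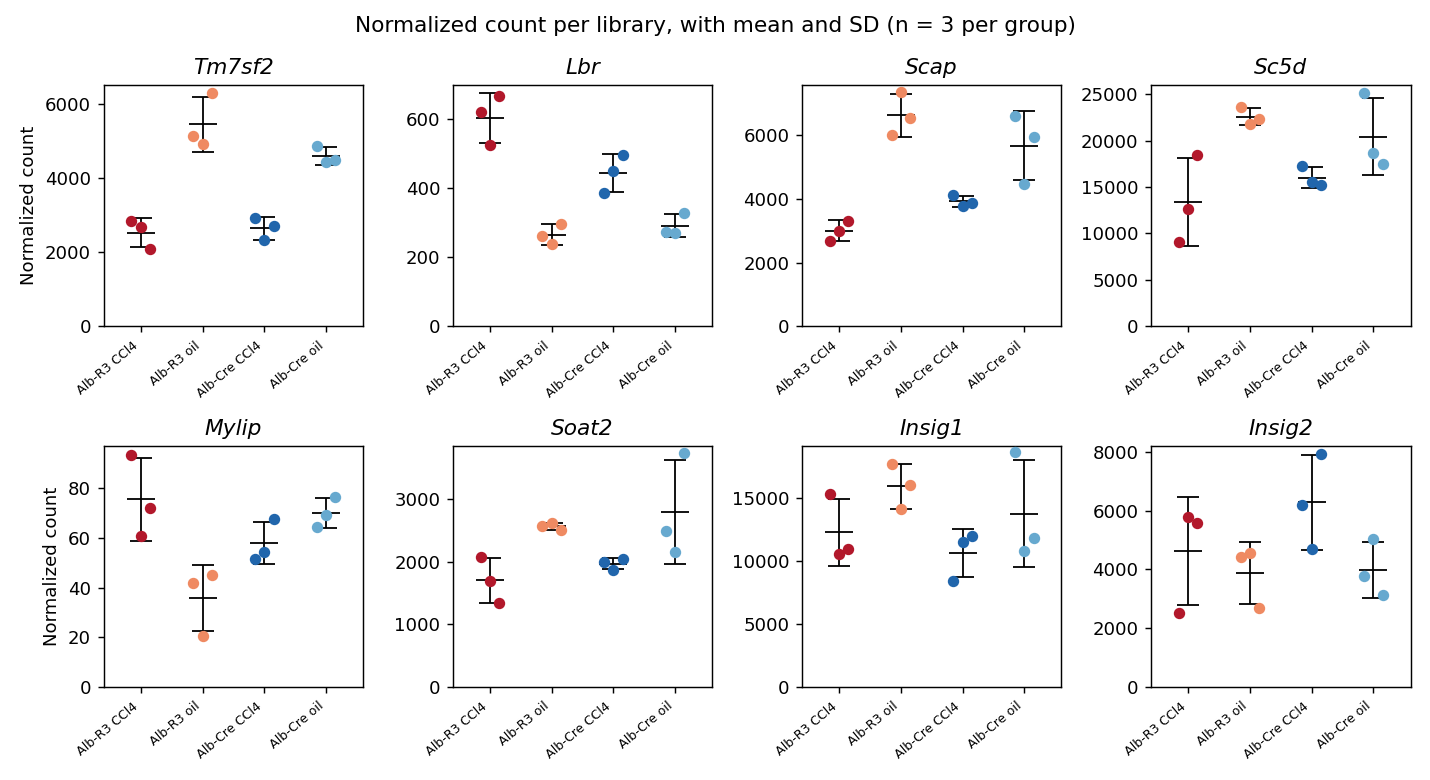
Points are normalized counts per library (y axis, from 0) for 8 members in the 4 groups (x axis); the long tick is the mean and the bars are the SD, n = 3. Tm7sf2 and Scap lie lower and Lbr higher in all 3 CCl4 libraries than in all 3 oil libraries of their genotype, whereas Insig1 and Insig2 overlap.

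Among the SREBP2 control genes, Scap was the only one of 4 that passed in Alb-R3. Scap, the escort that carries SREBP2 to the Golgi (ENSMUSG00000032485, chromosome 9, 110333288 to 110384950, plus strand), had 2680, 3008 and 3325 normalized counts in Alb-R3 CCl4, against 6002, 7357 and 6549 in Alb-R3 oil. Every CCl4 library was lower than every oil library, at a fold of 0.453 (log2 fold change -1.14 ± 0.17 SE, limma adjusted p = 0.000614). The change was -1.06 ± 0.18 without replicate 1. With mitochondrial genes left out and totals made equal, where the median of all genes was 0.37, it was -0.73 for Scap and -0.70 for Tm7sf2, and both passed. Srebf2, which encodes SREBP2 itself, had 1936, 1585 and 1667 in Alb-R3 CCl4, against 1674, 1858 and 1594 in Alb-R3 oil. These groups overlapped, with a log2 fold change of 0.02 whose 95% interval ran from -0.41 to 0.44.

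The retention factors Insig1 and Insig2 differed from each other in sign without passing. Insig1, a target of SREBP2 as well as its brake, had 15330, 10530 and 10970 in Alb-R3 CCl4, against 17640, 14070 and 16020 in Alb-R3 oil (log2 fold change -0.39 ± 0.25, limma adjusted p = 0.316). Insig2, the form that SREBP2 does not induce, had 2521, 5797 and 5578 in Alb-R3 CCl4, against 4423, 4557 and 2676 in Alb-R3 oil (0.20 ± 0.33, limma adjusted p = 0.729). Both pairs of groups overlapped. The lowest Insig2 value after CCl4 was in replicate 1, which held the highest Insig1 value of its group.

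Of the transport and storage genes, Mylip (ENSMUSG00000038175, chromosome 13, 45389742 to 45412022, plus strand) encodes a ubiquitin ligase that sends lipoprotein receptors to degradation. It had 93.58, 60.89 and 72.3 normalized counts in Alb-R3 CCl4, against 41.7, 20.54 and 45.03 in Alb-R3 oil. The groups did not overlap, and the log2 fold change was 1.11 ± 0.33 (SE, limma adjusted p = 0.0324). The call was lost without Alb-R3 CCl4 replicate 1 (0.95 ± 0.35, limma adjusted p = 0.0844). Mylip was the member with the lowest level, at a mean of 0.98 ± 0.13 FPKM in Alb-R3 CCl4 and 0.39 ± 0.14 FPKM in Alb-R3 oil (SD, n = 3 each). Markers of several other cell types were called higher in the same comparison, as given above for Lbr. All 12 Kupffer cell and macrophage markers were called higher in this comparison (10 without Alb-R3 CCl4 replicate 1), and none was at 0 in all libraries of a group. Their summed normalized counts were 14305 in Alb-R3 CCl4 replicate 1, and 2986 and 3814 in replicates 2 and 3, against 1088 to 1501 in Alb-R3 oil. They were 1926 to 2442 in Alb-Cre CCl4, against 1725 to 3111 in Alb-Cre oil. The part of macrophages and of the other cell types in the Mylip change was not tested.

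Soat2, the enzyme that esterifies cholesterol in hepatocytes, had 2068, 1687 and 1340 in Alb-R3 CCl4, against 2562, 2619 and 2506 in Alb-R3 oil. The groups did not overlap, and the log2 fold change of -0.62 ± 0.20 (SE) just missed the threshold (limma adjusted p = 0.0517). It passed without replicate 1, at -0.77 ± 0.20 (limma adjusted p = 0.02). Stard4, a carrier of sterol between membranes, was at -0.53 ± 0.25 (limma adjusted p = 0.172) with no overlap between the groups. Abca1, which exports cholesterol to nascent high-density lipoprotein, was at 0.32 ± 0.21 (limma adjusted p = 0.337), with overlap. In all, 8 members did not overlap in the lower direction and 2 in the higher, against 15.5% and 18.1% of all genes.

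**Figure D3:**
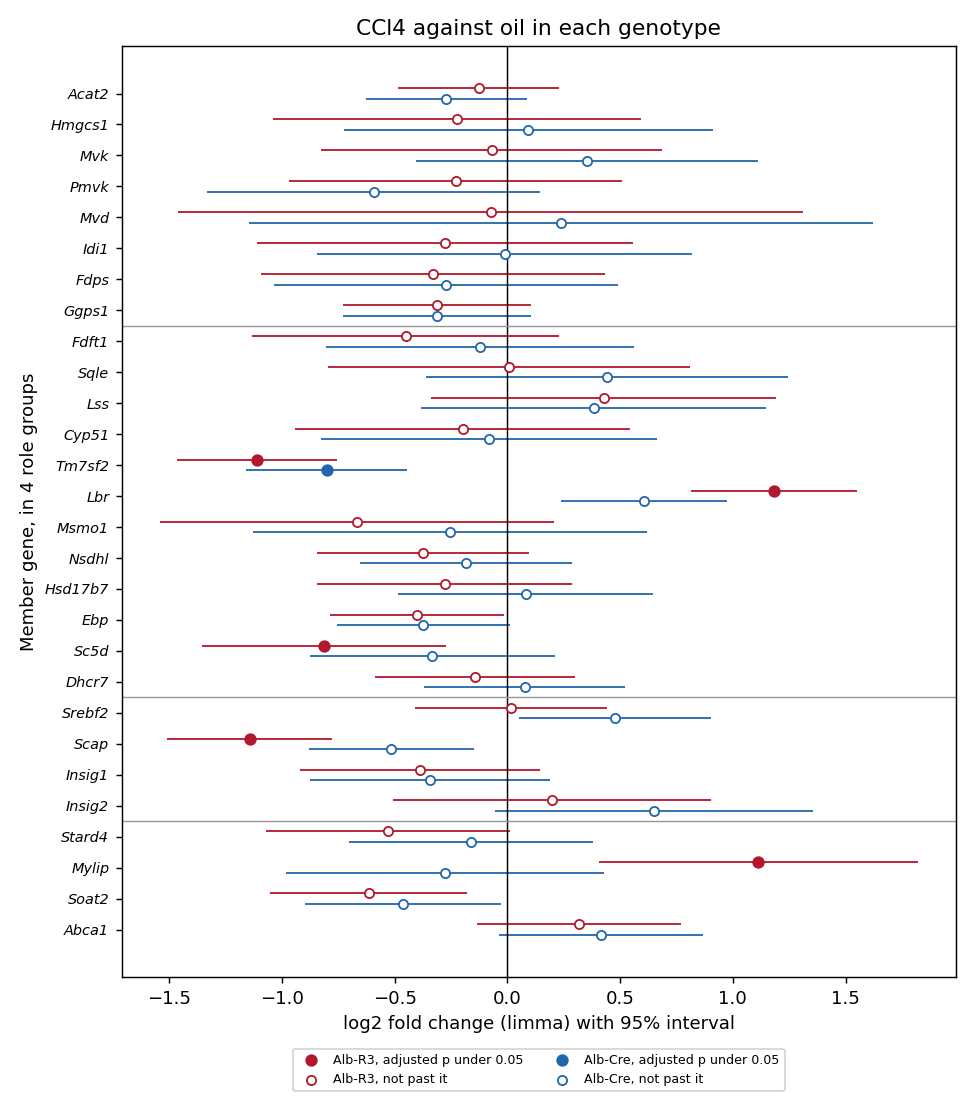
Points are limma's log2 fold changes of CCl4 against oil for the 28 members, with 95% intervals (x axis, log2 units), in Alb-R3 (red, upper of each pair) and Alb-Cre (blue, lower); filled points have an adjusted p under 0.05. Filled points appear at Lbr, Mylip, Tm7sf2, Scap and Sc5d in Alb-R3 and at Tm7sf2 in Alb-Cre.

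In Alb-Cre hepatocytes, CCl4 against oil gave 1 called member of 28, Tm7sf2, against 4.45% of all genes (3.46% higher, 0.988% lower). With mitochondrial genes left out and totals made equal, the split was 1 higher and 0 lower. Tm7sf2 had 2915, 2314 and 2707 normalized counts in Alb-Cre CCl4, against 4871, 4434 and 4474 in Alb-Cre oil. The groups did not overlap and the log2 fold change was -0.80 ± 0.17 (SE, limma adjusted p = 0.0126). Leaving out replicate 1 of Alb-Cre oil ended the call (limma adjusted p = 0.0634), as did leaving out replicate 2 of Alb-Cre CCl4 (limma adjusted p = 0.07).

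Lbr had 385, 449.5 and 494.5 in Alb-Cre CCl4, against 273, 269.3 and 328.2 in Alb-Cre oil, again without overlap. Its log2 fold change of 0.61 ± 0.17 missed the threshold (limma adjusted p = 0.0658), and passed in the fit without Alb-R3 CCl4 replicate 1 (limma adjusted p = 0.0461, where 4.93% of genes were called higher, 2.29% lower and 7.22% in all). Scap had 4113, 3781 and 3890 in Alb-Cre CCl4, against 6611, 4483 and 5948 in Alb-Cre oil, with no overlap and a log2 fold change of -0.51 ± 0.17 (limma adjusted p = 0.122).

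Sc5d had 17300, 15570 and 15210 in Alb-Cre CCl4, against 25180, 18620 and 17440 in Alb-Cre oil (log2 fold change -0.33 ± 0.25, limma adjusted p = 0.572). Soat2 had 1988, 1872 and 2045 in Alb-Cre CCl4, against 2483, 2154 and 3729 in Alb-Cre oil (-0.46 ± 0.20, limma adjusted p = 0.258). Neither pair of groups overlapped, and 5 members did not overlap in the lower direction and 1 in the higher, against 10.4% and 13.3% of all genes. Insig2 had 6193, 4710 and 7943 in Alb-Cre CCl4, against 3787, 5034 and 3146 in Alb-Cre oil, with 1 library of each group crossing (0.65 ± 0.33, limma adjusted p = 0.342). Mylip had 51.68, 54.38 and 67.68 in Alb-Cre CCl4, against 64.4, 69.1 and 76.6 in Alb-Cre oil, with overlap (-0.28 ± 0.33, limma adjusted p = 0.753). Msmo1 had 2393, 4895 and 3555 in Alb-Cre CCl4, against 6518, 2863 and 3790 in Alb-Cre oil, groups that overlapped widely (-0.25 ± 0.40, limma adjusted p = 0.824).

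The remaining Alb-Cre changes included Srebf2 at 0.48 ± 0.20 (limma adjusted p = 0.23) and Abca1 at 0.42 ± 0.21 (limma adjusted p = 0.344). The members' median log2 fold change was -0.14, beside 0.02 over all genes, with 17 of 28 below 0. Its sign, too, depended on the scaling: it was 0.02 after quantile normalization, 0.06 with mitochondrial genes left out and 0.09 on the FPKM columns, beside -0.04, 0.20 and 0.20 over all genes. Leaving out Alb-Cre oil replicate 1 gave 0.12, leaving out Alb-Cre CCl4 replicate 1 gave 0.05, and leaving out Alb-Cre oil replicate 2 gave -0.27. With array weights it was -0.34.

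The opposite signs of the C14-reductases can be read inside a library, where no scaling between libraries enters, as the ratio of Tm7sf2 to Lbr FPKM. This ratio was formed after the values had been seen. It was 4.76, 5.32 and 3.26 in Alb-R3 CCl4, against 20.4, 21.6 and 22.2 in Alb-R3 oil. It was 7.89, 5.36 and 5.71 in Alb-Cre CCl4, against 18.6, 17.2 and 14.2 in Alb-Cre oil. Tm7sf2 thus had the higher FPKM of the pair in every library, and the CCl4 libraries of each genotype all lay below the oil libraries. The geometric means were 4.36 against 21.4 in Alb-R3, a fold of 0.204, and 6.23 against 16.5 in Alb-Cre, a fold of 0.376. Between genotypes, Alb-R3 lay below Alb-Cre after CCl4 (fold 0.699) and above it after oil (fold 1.29), again without overlap. Each of these 4 comparisons had an exact two-sided permutation p = 0.1, the smallest that 3 samples against 3 allow. The Insig2 to Insig1 ratio overlapped in all 4, with an exact permutation p between 0.2 and 0.5. Its geometric means were 0.791 in Alb-R3 CCl4 and 0.526 in Alb-R3 oil, and 1.29 in Alb-Cre CCl4 and 0.648 in Alb-Cre oil.

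**Figure D4:**
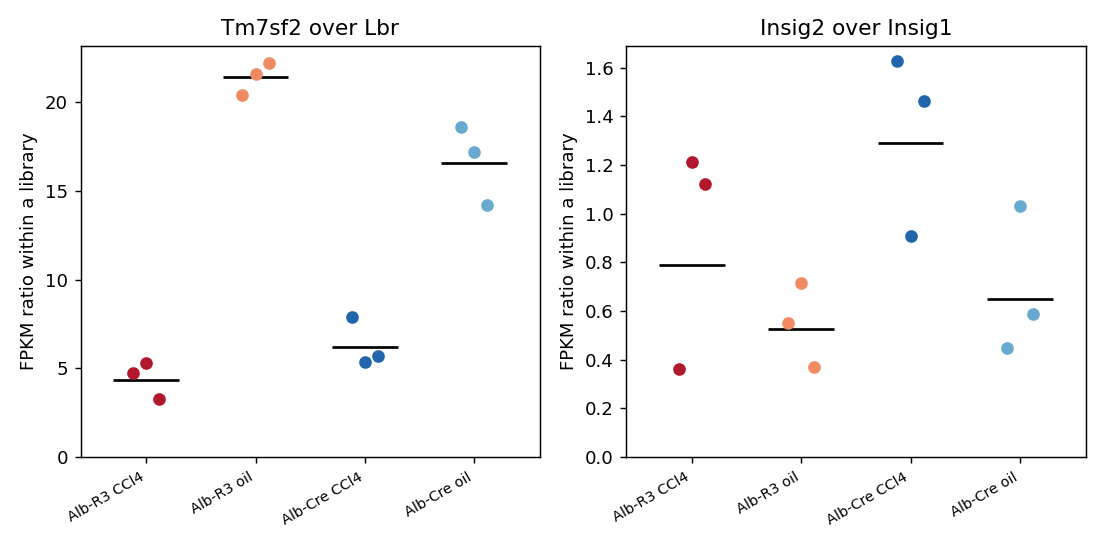
Points are ratios of FPKM values within 1 library (y axis, from 0) for Tm7sf2 over Lbr and Insig2 over Insig1 in the 4 groups, and lines are geometric means. Tm7sf2 over Lbr lies between 3.26 and 7.89 after CCl4 and between 14.2 and 22.2 after oil, whereas the Insig ratio overlaps.

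Alb-R3 against Alb-Cre hepatocytes after CCl4 showed no called member: 0 of 28 passed limma's adjusted threshold, against 0.173% of all genes. By an unadjusted limma p under 0.05, 856 of the 20244 genes were higher and 717 lower. Among the members, 1 was higher and 1 lower at that limit. Those were Lbr, at 0.44 ± 0.17 (limma adjusted p = 0.525), and Scap, at -0.39 ± 0.17 (limma adjusted p = 0.603). Without Alb-R3 CCl4 replicate 1, 0 members were called, against 0.192% of all genes. They were also the members whose groups did not overlap: Lbr had 523 to 666 in Alb-R3 CCl4, against 385 to 494.5 in Alb-Cre CCl4, and Scap had 2680 to 3325 against 3781 to 4113. Over all genes, 6.16% did not overlap in the higher direction and 5.86% in the lower. The median over members was 0.19, beside 0.00 over all genes, with 19 of 28 above 0. It was -0.05 without Alb-R3 CCl4 replicate 1, with 11 of 28 above 0, 0.024 without Alb-Cre CCl4 replicate 1, and -0.00047 with array weights.

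After oil, most synthesis enzymes lay a little higher in Alb-R3 than in Alb-Cre without any passing the test. None of the 28 members was called (0 by limma, against 0.207% of all genes). In the fit without Alb-R3 CCl4 replicate 1, 0 members were called against 0.52% of all genes. At an unadjusted limma p under 0.05 with all libraries, 2 members were higher and 1 lower, against 572 and 742 of the 20244 genes. The median log2 difference was 0.24, beside 0.00 over all genes, with 23 of 28 members and 18 of 20 synthesis enzymes above 0 (16 to 18 of the 20 over the 5 scalings tried). The median was 0.45 without Alb-Cre oil replicate 1, and leaving out 1 other oil library gave between 0.19 (replicate 2 of Alb-Cre) and 0.34 (replicate 2 of Alb-R3). With array weights it was 0.06. Within these groups, the members' median deviation varied between single libraries with a pooled SD of 0.29. The difference of 0.24 is between means of 3 libraries, so these values are not directly comparable. The enzymes also rose and fell together between libraries, so the counts above 0 are not of independent genes. Mvk had 1192, 1157 and 1579 normalized counts in the Alb-R3 oil libraries, against 1066, 511.4 and 716 in Alb-Cre oil, without overlap (0.83 ± 0.35, limma adjusted p = 0.696). Dhcr7 was at 0.51 ± 0.21 (limma adjusted p = 0.645), with overlap.

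Hmgcs1 (0.74 ± 0.38) and Tm7sf2 (0.24 ± 0.17) were the other members higher without overlap, against 5.66% of all genes. Mylip was the single member lower without overlap, against 5.63%: it had 41.7, 20.54 and 45.03 in the Alb-R3 oil libraries, against 64.4, 69.1 and 76.6 in Alb-Cre oil (-1.02 ± 0.33, limma adjusted p = 0.414). The 12 macrophage markers lay lower there too, with a median log2 difference of -1.04 and 12 of 12 below 0, of which none was called and 6 had an unadjusted p under 0.05. Endothelial cell markers lay lower as well, at a median of -1.11, with 10 of 10 below 0, 1 called and 9 at an unadjusted p under 0.05. Stellate cell and fibroblast markers were at a median of -1.14, with 9 of 10 below 0, none called and 7 at an unadjusted p under 0.05. The part of these cell types in the Mylip difference was not tested.

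The difference between genotypes in their response to CCl4, tested as an interaction, gave 0 called members and 0 of 20244 genes (0%), and 0 members against 0.0151% of genes without Alb-R3 CCl4 replicate 1. By unadjusted p under 0.05, limma placed 2 members higher and 1 lower, against 885 and 631 of the 20244 genes. Mylip was at 1.39 ± 0.46 (limma adjusted p = 0.5), Lbr at 0.58 ± 0.24 (limma adjusted p = 0.596) and Scap at -0.63 ± 0.24 (limma adjusted p = 0.555). The median over members was -0.24, beside -0.02 over all genes. Leaving out replicate 2 of the Alb-Cre oil libraries brought it to -0.02, and leaving out their replicate 1 to -0.42. With mitochondrial genes left out it was -0.03, and with array weights -0.05. Leaving out other single libraries gave values down to -0.38 (without Alb-Cre CCl4 replicate 1) and up to -0.10 (without Alb-R3 CCl4 replicate 3). For Tm7sf2, the interaction was -0.31 with a 95% interval from -0.81 to 0.19. The called and uncalled members of both genotypes are therefore not shown to differ between them. The 4 two-group comparisons share their groups, so an agreement between any pair that share one is not independent.

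Between libraries of the same group, most synthesis enzymes went up and down together. Of 20 enzymes, 15 were highest of their group in Alb-R3 CCl4 replicate 1, 16 in the library labelled Alb-R3 oil replicate 3, 12 in Alb-Cre CCl4 replicate 2 and 17 in Alb-Cre oil replicate 1. Lowest of their group were 12 in Alb-R3 CCl4 replicate 3, 16 in Alb-R3 oil replicate 2, 15 in Alb-Cre CCl4 replicate 1 and 16 in Alb-Cre oil replicate 2. Each group thus had a library with 16 to 18 of the 20 enzymes above the mean of its group, and another with 0 to 5 above it. The median deviation of the 20 enzymes from their group means was 0.59 on the log2 scale in Alb-R3 CCl4 replicate 1, 0.21 in the library labelled Alb-R3 oil replicate 3, 0.29 in Alb-Cre CCl4 replicate 2 and 0.49 in Alb-Cre oil replicate 1. It was -0.34 in Alb-R3 CCl4 replicate 3, -0.13 in Alb-R3 oil replicate 2, -0.39 in Alb-Cre CCl4 replicate 1 and -0.34 in Alb-Cre oil replicate 2. The shift was thus smallest among the Alb-R3 oil libraries.

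**Figure D5:**
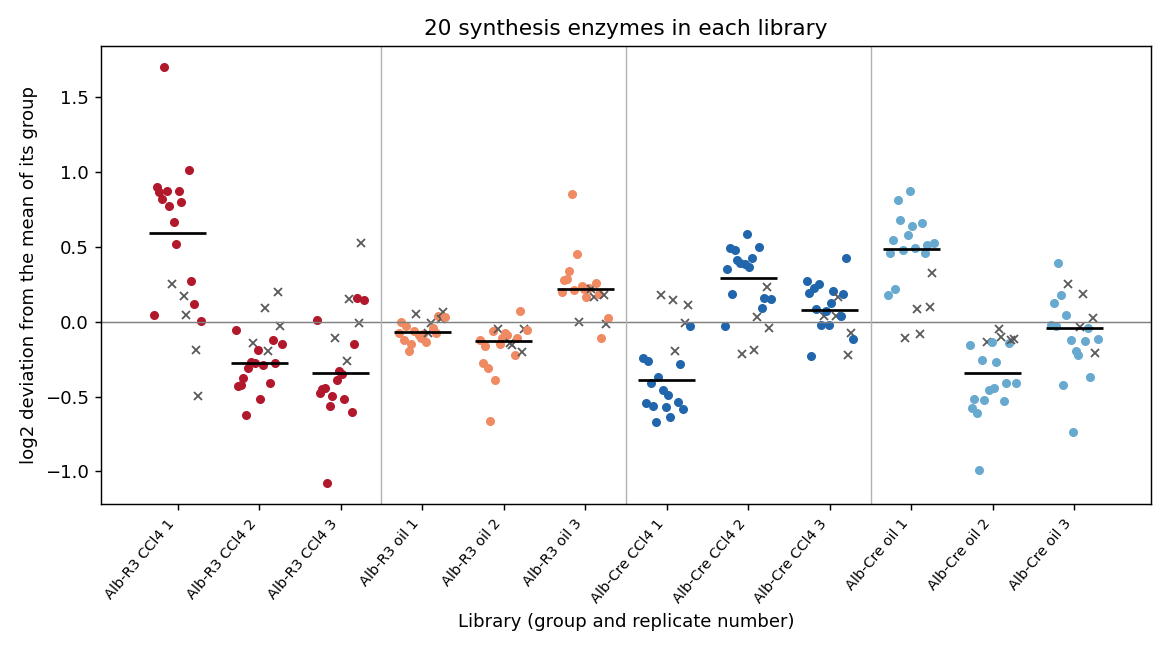
Each point is 1 of 20 synthesis enzymes in 1 library, as its log2 deviation from the mean of its group (y axis), with libraries along the x axis; black lines are medians and grey crosses are Ggps1, Tm7sf2, Lbr, Ebp and Sc5d. The medians run from -0.39 in Alb-Cre CCl4 replicate 1 to 0.59 in Alb-R3 CCl4 replicate 1.

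As a description over the 12 libraries, which share their depth and preparation within a library, the within-group deviation of each member was correlated with the mean deviation of the other enzymes. Fdft1 (r = 0.99), Msmo1 (0.98), Lss, Hmgcs1 (both 0.97) and Fdps (0.96) followed that mean most closely. In all, 12 of 20 enzymes had r over 0.7, against 5.15% of 20216 other genes. Without Alb-R3 CCl4 replicate 1 the counts were 14 of 20 and 2.13%. Among the controls, Insig1 (0.91) and Srebf2 (0.70) followed it as well, and Insig2 ran against it (-0.73, and -0.51 without that library).

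The enzymes with the lowest r included those called after CCl4: Tm7sf2 (0.35), Lbr (0.33) and Sc5d (-0.33), beside Ggps1 (0.12) and Ebp (0.07). Scap was at 0.06. These low values moved without Alb-R3 CCl4 replicate 1, to 0.27 for Sc5d, -0.40 for Ggps1, 0.54 for Ebp, 0.42 for Scap and 0.11 for Tm7sf2, while Lbr was at 0.34. Msmo1, called only without replicate 1, was among the closest followers. The same deviations form the spread that limma tests against, so a shared shift makes its followers harder to call. The link between a low r and a call is thus partly built in.

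Compared per length, as FPKM, the members spanned a wide range in Alb-Cre oil. Sc5d (242.6 ± 48.3, SD, n = 3), Fdps (241.6 ± 78.5), Insig1 (225.5 ± 68.2) and Ebp (224.3 ± 14.5) stood highest. Lbr (7.06 ± 0.75), Ggps1 (5.07 ± 0.75) and Mylip (0.79 ± 0.07) stood lowest, and Tm7sf2 was at 116.5 ± 5.5. Of 27 neighbours in the order of levels, 24 overlapped in their range over libraries, so most of the order is not resolved. In Alb-R3 CCl4, Fdps (324.2 ± 114.3) headed the order, and Mylip closed it.

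The wider pathway was read from a list of 34 further genes. After CCl4 in Alb-R3, 2 were called higher and 3 lower, against 10.9% and 6.92% of all genes and 17.8% in all, with a median log2 fold change of -0.11, beside 0.00 over all genes. Fntb, the beta subunit of protein farnesyltransferase, had 179.5, 191.9 and 198.2 normalized counts in Alb-R3 CCl4, against 78.81, 82.73 and 71.43 in Alb-R3 oil (log2 fold change 1.28 ± 0.20, limma adjusted p = 0.000772). In Alb-Cre it had 175, 183 and 189.4 after CCl4, against 119.7, 98.19 and 87.12 after oil (0.85 ± 0.20, limma adjusted p = 0.0252). Fntb groups did not overlap in either genotype, and it was the only 1 of the 34 called in Alb-Cre.

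Soat1, the cholesterol-esterifying enzyme prominent in macrophages, had 161.7, 20.51 and 63.67 in Alb-R3 CCl4, against 4.508, 15.87 and 8.285 in Alb-R3 oil (2.68 ± 0.66, limma adjusted p = 0.0139). Its highest value was in replicate 1, the library with the 32.3% mitochondrial share, and the change was 1.97 ± 0.60 without it (limma adjusted p = 0.0408). As for Mylip, markers of macrophages and of other cell types were also higher after CCl4 in Alb-R3, and their part was not tested. Acss2, which makes acetyl-CoA from acetate (-1.30 ± 0.41, limma adjusted p = 0.0458), Cyb5r3, the cytochrome b5 reductase (-0.78 ± 0.24, adjusted p = 0.0397), and Abcg8, a subunit of the biliary sterol exporter (-1.29 ± 0.38, adjusted p = 0.0326), were lower. All 3 lost their calls without replicate 1. In that fit 4 of the 34 were called higher, Fntb, Soat1 and Pdss1 among them, against 9.84% of all genes. None was called lower, against 6.21%, and the median was 0.11. In both genotype comparisons and in the interaction, limma called 0 of the 34, with 3, 0 and 2 at an unadjusted p under 0.05. Over all 20244 genes, 856 were higher and 717 lower at that limit after CCl4, 572 and 742 after oil, and 885 and 631 in the interaction.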

How the data were processed

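RNA from primary hepatocytes was sequenced in 12 samples, 4 groups of 3. For 35709 Ensembl genes the authors deposited FPKM values beside normalized counts, 1 of each per sample, per the file headers. The tools kallisto 0.44.0 and edgeR and the build GRCm38.p6 are given, per the submitters' processing notes, with no role or order. Each deposited normalized count is a signal, an estimated count divided by 1 factor per sample: of low values, 68.6% to 72.8% per sample were whole multiples of the value of 1 read within a tolerance of 0.02, so no count model was fitted. This is the normalized-value branch of the planned tests. The authors' FPKM values, scaled to gene length and library total, served for levels between genes and ratios within a library.

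Here, log2(normalized count + 1) was fitted with limma 3.58.1 (R 4.3.3), with a mean-variance trend, 1 coefficient for each of 4 groups and 8 residual degrees of freedom. Fold changes are on that scale, which understates changes of low genes such as Mylip. Adjusted p-values are Benjamini-Hochberg over all 20244 tested genes within a comparison. The estimated depth was 28000000 to 39600000 reads per sample, and counting error was not separated from other variation between samples. All 28 members are named, with per-sample values for those that passed in any comparison or form a pair of like function. Of the further 34 genes, those that passed with all 12 samples are named; 1 result of another fit is not reported here. The members, lists and tests were chosen with earlier results of these data known. Alternatives were other scalings, filters, pseudocounts (0.1 and 5), thresholds (0.01 and 0.1), array weights, a replicate block, a fit to 6 samples, and leaving out each sample. Gene positions are from GENCODE M21 (GRCm38), and motifs were searched as exact letters on both strands.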

Additional observations from a re-analysis of the deposited data

Results flagged for a closer look

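The Mylip libraries lay on opposite sides of their oil means in the genotypes, although the Alb-Cre groups overlapped and their difference did not pass (-0.28 ± 0.33, limma adjusted p = 0.753): every Alb-R3 CCl4 library lay above the mean of Alb-R3 oil, and every Alb-Cre CCl4 library lay below the mean of Alb-Cre oil. Read between genotypes, every Alb-R3 CCl4 library lay above the Alb-Cre CCl4 mean of 57.9 normalized counts, and every library labelled Alb-R3 oil lay below the Alb-Cre oil mean of 70.03. The difference, tested as an interaction, was 1.39 ± 0.46 on the log2 scale and did not pass (limma adjusted p = 0.5).

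Scap lay below the Alb-Cre CCl4 mean of 3928 normalized counts in every Alb-R3 CCl4 library, and above the Alb-Cre oil mean of 5681 in every library labelled Alb-R3 oil. The interaction was -0.63 ± 0.24 on the log2 scale and did not pass (limma adjusted p = 0.555).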

How the results depend on the processing

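In CCl4 against oil in Alb-R3, 5 members were called. There were 3 after quantile normalization, in the fit to the 6 samples compared and at a threshold of 0.01. Over the 12 alternatives other than thresholds and left-out samples, the count ran from 3 to 7. Leaving out 1 sample gave 3 (without Alb-R3 oil replicate 2) to 7 (without Alb-Cre oil replicate 3). The calls of Lbr, Tm7sf2 and Scap held in all 24 alternatives, with log2 fold changes over the alternatives that kept all samples of 1.14 to 1.60, -1.11 to -0.70 and -1.14 to -0.73. Mylip and Sc5d lost theirs in several, with adjusted p up to 0.267 and 0.291 after quantile normalization. The members' median there was 0.037 after quantile normalization, 0.16 with mitochondrial genes left out, 0.014 on FPKM, and -0.51 to -0.11 leaving out 1 sample. In Alb-Cre, 1 member was called, and 0 after quantile normalization and at a threshold of 0.01. There were 2 at a threshold of 0.1, 3 on FPKM and 5 with array weights. Leaving out 1 sample gave 0 to 2. Member counts under alternatives have no share of all genes beside them unless one is printed. That share also moved between fits: without Alb-R3 CCl4 replicate 1 it went from 17.8% to 16.1% in Alb-R3, and from 4.45% to 7.22% in Alb-Cre. A different count is therefore not shown to be particular to the members. Tm7sf2 in Alb-Cre lost its call after quantile normalization (adjusted p = 0.0645) and with mitochondrial genes left out (adjusted p = 0.0558). The causes were not tested. Both genotype comparisons and the interaction gave 0 called members under every alternative run, and no called gene changed direction in any of them.

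With the replicate number as a block, 4 members were called in Alb-R3, 1 in Alb-Cre and 0 in the other comparisons; the 1 lost was Sc5d (adjusted p = 0.0701). Over 18 same-numbered pairs the correlation of deviations was -0.39 to 0.45, with 5 over 0.1. Between the oil groups it was 0.06, 0.36 and 0.45 for same-numbered samples and -0.43 to 0.24 for the others. With 3 samples per group the deviations sum to 0, which forces some negative values. The check therefore cannot decide whether the numbers pair samples in part of the design. Counting error weighs most on members with low counts, such as Mylip and Ggps1, and was not separated from other variation.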
